A study of Drosophila melanogaster with 18 samples.

Results

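The comparison described here set Kc167 cells that received ACF1 without a DNA-binding domain (ACF1) against cells that received the GAL4 DNA-binding domain alone (GAL4). It was made with TRIP, an assay in which one pool of cells carries the same reporter gene at many genomic sites and every copy is told apart by its own barcode. The members were chosen by the transfected protein in the labels, which gave 8 of the 18 labelled samples: a cDNA and a gDNA library from each of 2 replicates per condition. All 749 mapped reporters of the table were described. Kc167 is a Drosophila embryonic cell line. The reporter was 5xGal4UAS-pMT-GFP, that is, GFP behind a copper-inducible metallothionein promoter with 5 binding sites for GAL4, inserted by the Sleeping Beauty transposase. The ACF1 cells were transiently transfected with V5-ACF1 and the GAL4 cells with Gal4DBD-V5, both in a pAc5 plasmid that also encodes mCherry. Cells of both conditions were treated with 0.5 mM copper sulfate for 2 days before transfection and sorted for mCherry at day 2 after it. No change to the endogenous ACF1 is described for either condition. The 2 conditions differed in 2 ways at once, since ACF1 was in excess in one and the GAL4 domain could occupy the binding sites in the other. These cannot be told apart here. Barcode libraries carry no cellular transcripts, so neither the cell line nor the amount of ACF1 could be checked in the data. The replicates are technical by the design text of the series and biological by the study's methods, so errors and p-values measure the spread between these libraries only.

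ACF1 is the large accessory subunit of the nucleosome remodelling complexes ACF and CHRAC, in which the ATPase ISWI slides nucleosomes along DNA and spaces them evenly. These complexes help to assemble regular nucleosome arrays and have been linked to repression of transcription in Drosophila. The GAL4 domain comes from a yeast transcription factor and has no activation domain of its own. ACF1 fused to such a domain is held at the reporter. Free ACF1 can reach a reporter only as it can reach any other site of the genome, and the comparison asks what its excess does across integration sites.

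A reporter is known by its barcode of 21 nt, and any 2 barcodes of the table differed at 6 positions or more. The barcodes below, printed in lower case from 5′ to 3′ as the table has them, belong to the reporters on which the results turn. Each name gives the chromosome arm and the position as in the table, for which the submitters' processing notes name the build dm3. No annotation of that build was at hand, so genes at these sites are not named.
3R 24818880, plus strand, past the threshold: gtagatgcgcgctgagctgga
2L 14457104, plus strand, past the threshold: cagggctgaatacgtgcaggt
X 18629353, plus strand, among the lowest changes: gatcgtcgggcaaagtgagtg
2L 18392404, minus strand, among the lowest changes: ctggaattgtgggaggcggcg
Uextra 1722011, plus strand, among the lowest changes: aatgggtgagatgtgtagccc
3R 2132199, plus strand, at 0 with ACF1: gcaatcagacggtgatatggt
3R 5250276, plus strand, at 0 with ACF1: gcccacgaaatcgcatctgta
3L 4983885, minus strand, at 0 with ACF1: gcgaaaccttgtatcacaatt
X 777625, plus strand, at 0 with ACF1: aggcacattgtcgaccggtgg
2L 21000965, plus strand, at 0 with ACF1: acccctctgggtttgaatgtt
3R 5962305, minus strand, among the highest changes: ggcactcacgaaactatcgga
X 18942971, minus strand, among the highest changes: gtgaaggtgttgagtcagtag
2L 3140152, plus strand, among the highest changes: gagttctttcaaggtctaatg
3R 2021404, plus strand, among the highest changes: gacaattgtatctatactgag
3L 3430681, minus strand, among the highest expression in GAL4: gatacttagtagcttagcgcc
3R 4644683, plus strand, among the highest expression in GAL4: tgggtaagggcaactgaactt
X 3325631, minus strand, among the highest expression in GAL4: gggggggcacgtcaggaagtg
3L 3387336, plus strand, among the highest expression in GAL4: actaggcttgcaggctagacg

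Depth was similar in the cDNA libraries, with totals of 3832782 and 4049776 counts in ACF1 and 4181903 and 3941610 counts in GAL4. The gDNA totals were 2416656 and 1535023 counts in ACF1 and 2656283 and 1689978 counts in GAL4. Every reporter had at least 88 gDNA counts in each of the 4 gDNA libraries. Expression is the cDNA count of a reporter over its gDNA count from the same cells, on a scale that the authors set with 1 factor per library from a spike-in pool and the library sizes. The counts lay in few reporters, and more so with ACF1: the 10 highest reporters took 51.0% and 52.8% of the cDNA counts in ACF1 and 44.9% and 47.2% in GAL4. Reporters with a mean expression of 0 in any of the 4 conditions of the series had no fold change, which left 642 of the 749. Of the 107 left out, 71 were at 0 only in conditions other than ACF1 and GAL4.

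Free ACF1 was followed by a modest and uneven lowering of the typical reporter, without a fall of the pool as a whole. The median reporter had an expression of 21.3 and 13.6 in the ACF1 libraries, against 27.9 and 24.3 in the GAL4 libraries. Both ACF1 medians were below both GAL4 medians. The mean expression over all reporters was 148 and 126 in ACF1 and 111 and 122 in GAL4, so means and medians went in opposite directions. The summed cDNA of the pool over its summed gDNA, after the authors' scaling, was 1.36-fold higher with ACF1 in replicate 1 and 1.04-fold higher in replicate 2.

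Over the 642 reporters the median log2 fold change of ACF1 over GAL4 was −0.40, with quartiles of −1.40 and 0.29. Expression was lower with ACF1 for 425 reporters (66.2%). A log2 fold change below −1 was found for 207 reporters, and one above 1 for 63. The lowering was thus the more common direction, but it was not shared by all sites. With only the 497 reporters that had counts in all cDNA libraries of the series, the median was −0.23, and without division by gDNA it was −0.24. Over the 642 it was −0.20 in replicate 1 alone (616 reporters) and −0.56 in replicate 2 (620 reporters), with a mean of −0.38 ± 0.26 (SD, n = 2). The medians of log2 expression over the 597 of these 642 reporters that were above 0 in all 4 cDNA libraries of ACF1 and GAL4 were 5.20 and 4.63 in ACF1, against 5.32 and 5.26 in GAL4. This difference of −0.37 had a two-sided exact permutation p of 0.33, which is the smallest that 2 libraries against 2 can give.

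The size of the shift was of the order of the spread within ACF1. Set against the 2 GAL4 libraries, ACF1 replicate 1 gave medians of −0.19 and −0.06 and ACF1 replicate 2 gave −0.68 and −0.55. Between the 2 ACF1 libraries themselves the median was 0.44, and between the 2 GAL4 libraries it was 0.12. All 4 pairings were on the lower side, while those of replicate 1 lay close to 0. With ACF1 replicate 1 left out, the median over the reporters was −0.75.

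**Figure D1:**
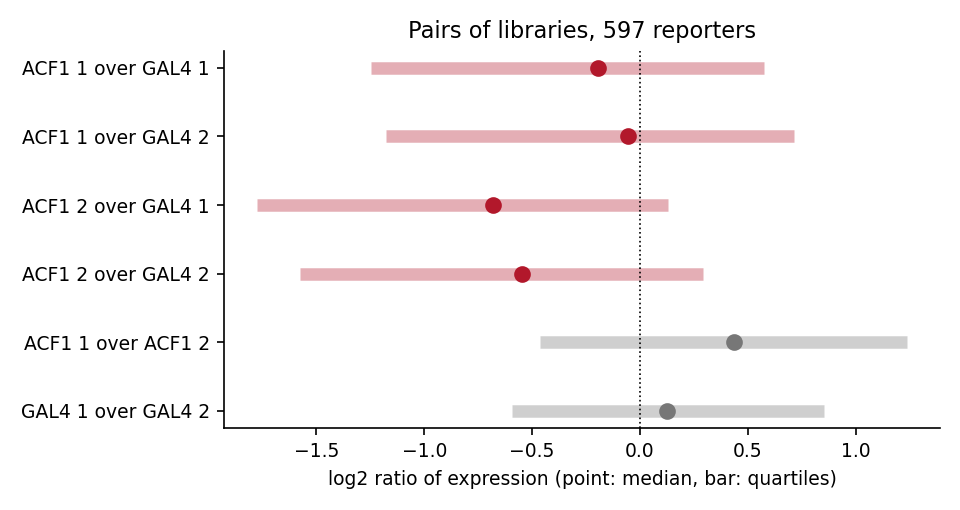
The horizontal axis gives the log2 ratio of expression between 2 libraries over 597 reporters, with a row for each pair of libraries, points for medians and bars for quartiles. Red rows set an ACF1 library over a GAL4 library and have medians from −0.68 to −0.06, and grey rows compare the replicates of one condition, with 0.44 for ACF1 and 0.12 for GAL4.

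The size of the shift also rested on the scaling between libraries. With every library scaled to its totals in place of the authors' factors, the median log2 fold change was −0.68, a shift by 0.44 in replicate 1 and by 0.05 in replicate 2. Methods that centre the typical reporter, by construction, took most of the shift away: the median fitted change was −0.63 on library totals and −0.09 with TMM factors. The values below are on the authors' scale, in which this common shift is contained, and the tests of single reporters are on library totals.

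Taken apart into cDNA and gDNA, the shift of the median lay in the cDNA shares. The share of the gDNA counts taken by a reporter had a median log2 change of −0.03 and 0.01 in the replicates, with an SD over reporters of 0.90 and 0.97. The SD between replicates of one condition was 0.90 in ACF1 and 0.99 in GAL4, so the make-up of the pool differed no more between the conditions than within them. The share of the cDNA counts had a median log2 change of −0.52 and −0.54 in the replicates, with ACF1 below GAL4 for 431 and 426 of 597 reporters. Between replicates of one condition this median was 0.13 in ACF1 and 0.16 in GAL4. The SD over reporters was 1.54 and 1.29 for ACF1 over GAL4, against 1.57 between the ACF1 replicates and 0.83 between the GAL4 replicates. In cDNA, too, single reporters thus spread no more between the conditions than within ACF1. The scaling to shares holds the sum of each library fixed, so a fall of the median share goes with a larger share of the highest reporters.

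The direction of change of a reporter, read between libraries of the same replicate number, was only partly repeated. Of all 749 reporters, 626 were above 0 in the 4 cDNA libraries, including those without a fold change of the means because they were at 0 in another condition. Of the 626, 266 (42.5%) were lower with ACF1 in both replicates and 104 (16.6%) were higher in both. The other 256 (40.9%) went in opposite directions. A change below −1 in both replicates was seen for 100 reporters and a change above 1 in both for 16, while 54 passed 1 in opposite directions. The changes in the replicates correlated with Pearson's r = 0.21 and Spearman's rho = 0.23 over the 626 reporters, which share their libraries and are not independent. Restricted to 464 reporters with at least 100 counts in each cDNA library, r was 0.18. The level of a reporter was far better repeated than its change, with r of 0.82 between the replicates in ACF1 and 0.84 in GAL4 for log2 expression.

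**Figure D2:**
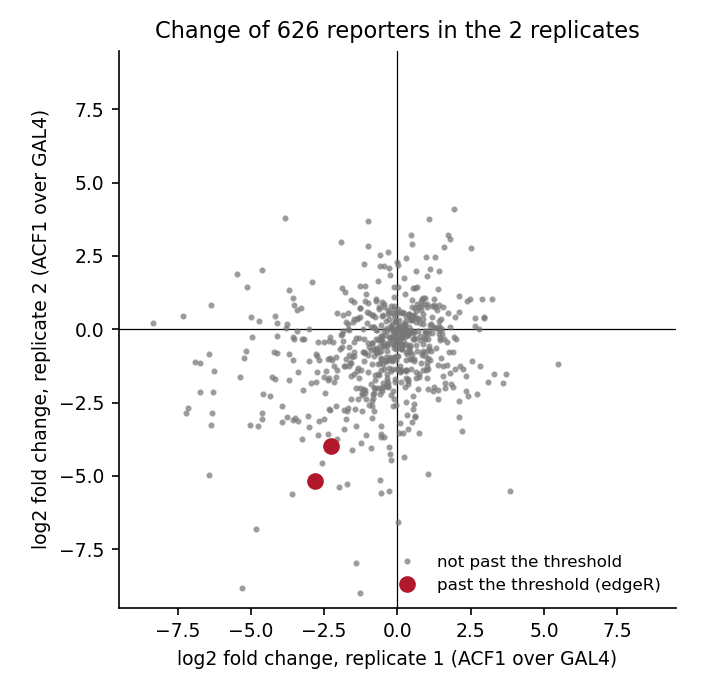
Each point is one of 626 reporters, with the log2 fold change of ACF1 over GAL4 in replicate 1 on the horizontal axis and in replicate 2 on the vertical axis. Both lower quadrants hold more points than the upper ones, the cloud is nearly round (r = 0.21), and the 2 red points are reporters past the edgeR threshold that had counts in all 4 cDNA libraries.

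Part of this spread came with low counts. The SD of the log2 difference between the 2 ACF1 replicates was 2.88 for reporters with 10 to 99 counts, 1.58 with 100 to under 1000, 1.02 with 1000 to under 10000 and 0.66 with 10000 or more. Between the GAL4 replicates it was 1.79, 1.45, 1.08 and 0.63 in the same bins. At 1 to 9 counts the SD was 3.76 over 25 reporters in ACF1 and 4.94 over 4 reporters in GAL4. The ACF1 replicates thus differed clearly more than the GAL4 replicates in the bin of 10 to 99 counts only. The change of the gDNA share was not repeated at all between the replicates (r = 0.01), and the change of the cDNA share gave r = 0.23 and rho = 0.33.

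The lowering was strongest at weakly expressed reporters. To keep the noise of the control out of both axes, reporters were ordered by their expression in one GAL4 replicate and the change was read in the other. Ordered by GAL4 replicate 2, the quintiles from low to high had median log2 fold changes of −1.11, −0.49, −0.33, −0.10 and 0.36 in replicate 1. Ordered by GAL4 replicate 1, they had −1.52, −0.92, −0.49, −0.47 and −0.0045 in replicate 2. The order was the same both ways, from a clear lowering in the lowest quintile to none in the highest. The lowest minus the highest quintile was −1.48 and −1.52. These values use the same GAL4 libraries in exchanged roles and are not independent, and with expression and change taken from the mean of both GAL4 replicates the difference was −0.75.

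In the lowest quintile 92 of 124 reporters were lower with ACF1 in replicate 1 and 99 of 124 in replicate 2. In the highest quintile 33 of 123 were lower in replicate 1 and 62 of 124 in replicate 2. The quartiles in the lowest quintile ran from −2.73 to 0.11 in replicate 1, so single weak reporters still went both ways. Between the 2 ACF1 libraries, the medians over quintiles of mean GAL4 expression were 0.59, 0.77, 0.29, 0.29 and 0.32, so the replicates also differed most among the weaker reporters. The sign of the highest quintile depended on the scaling, with −0.08 and −0.06 in the replicates under scaling to library totals, where the lowest quintile had −1.56 and −1.58.

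**Figure D3:**
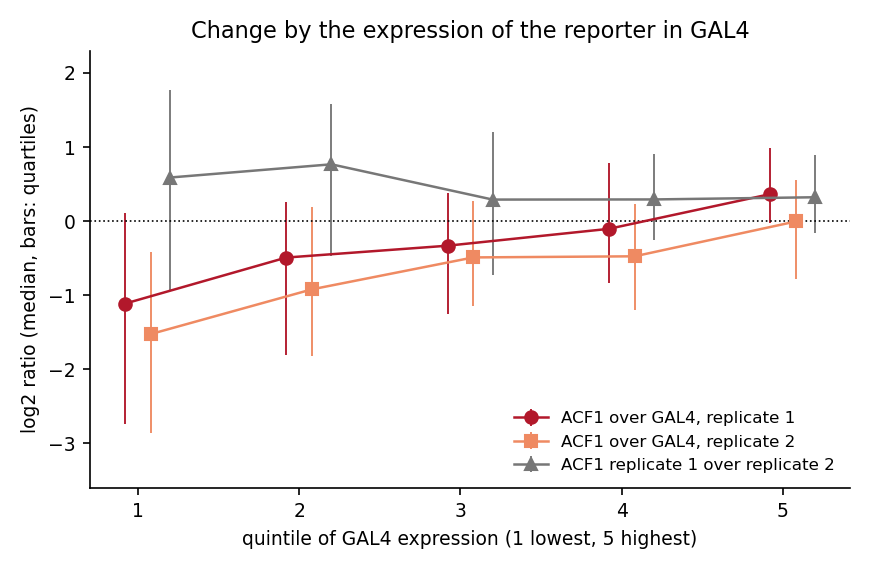
The horizontal axis gives quintiles of reporters by expression in GAL4, from lowest to highest, and the vertical axis the median log2 ratio with quartiles as bars. Circles (replicate 1) and squares (replicate 2) show ACF1 over GAL4, which climb from −1.11 and −1.52 in the lowest quintile to 0.36 and −0.0045 in the highest, and triangles show ACF1 replicate 1 over ACF1 replicate 2, which stay above 0 in all quintiles.

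Counts of 0 are not altered by the scaling factors, but they depend on the share of the reads that a reporter takes. They were more frequent with ACF1, where the median reporter had 396 and 364 cDNA counts, against 785 and 588 in GAL4. With ACF1, 72 and 75 of the 749 reporters had no cDNA count, or 9.61% (95% Wilson interval 7.70 to 11.9) and 10.0% (8.06 to 12.4). With GAL4, 18 and 30 had none, or 2.40% (1.53 to 3.77) and 4.01% (2.82 to 5.66). The intervals of the ACF1 libraries did not overlap with those of the GAL4 libraries. Wilson intervals, here and below, treat the reporters of a library as independent trials and leave out the spread between libraries. Their lack of overlap is therefore a description and not a test of the conditions. Intervals and bounds on fold changes cover the counting error of reads only, since reads without molecular identifiers are not independent molecules. In both libraries at once, 32 reporters were at 0 with ACF1 and 8 with GAL4, of which 4 were the same reporters.

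Reporters at 0 in both ACF1 libraries and above 0 in both GAL4 libraries numbered 17, against 2 the other way round. Thinning all cDNA libraries to the depth of the smallest, ACF1 replicate 1 with 3832782 counts, left 17 and 2. The depths were close to begin with, and the 17 had at least 19 and 8 counts in the GAL4 libraries. Thinning could therefore hardly change the 17, and nothing is drawn from it. With at most 3 counts in place of 0, the numbers were 30 and 0. The 17 reporters had a median of 110 and 83 cDNA counts in the GAL4 libraries, and each still had at least 96 gDNA counts in both ACF1 libraries. They were thus present in the ACF1 pool while their transcript was not detected. They lay on the arms 2L (4, or 3.05% of its reporters), 2R (4, 3.57%), 3L (1, 0.667%), 3R (4, 2.27%) and X (4, 2.72%). On heterochromatic or unplaced scaffolds there were 0, but these held only 28 of the 749 reporters. Of the 17, 3 were also at 0 in both libraries of the condition in which ACF1 was fused to the GAL4 domain. The share over all reporters is not given here, so the 3 are a description only.

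Losses were found mostly among weak reporters, and the excess over GAL4 was clearest at 10 to 99 counts. At 1 to 9 counts, with few reporters, ACF1 had no excess. There 2 of 8 were at 0 in ACF1 and 2 of 8 in GAL4 in replicate 1, and 6 of 10 in ACF1 and 7 of 10 in GAL4 in replicate 2. Among reporters with 10 to 99 counts in GAL4 replicate 2, 36.2% (95% Wilson interval 27.2 to 46.2) were at 0 in ACF1 replicate 1, against 5.32% (2.29 to 11.9) in GAL4 replicate 1. Among those with 10 to 99 counts in GAL4 replicate 1, 44.4% (33.5 to 55.9) were at 0 in ACF1 replicate 2, against 13.9% (7.72 to 23.7) in GAL4 replicate 2. At 100 to under 1000 counts the shares were 5.43% in ACF1 and 0.958% in GAL4 in replicate 1, and 7.55% in ACF1 and 1.57% in GAL4 in replicate 2. From 1000 counts upwards 1 reporter was at 0 in each ACF1 library and 0 in either GAL4 library. How many cells or molecules entered the amplification of each library is not given in the sources used here, and their part in these losses was not tested.

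**Figure D4:**
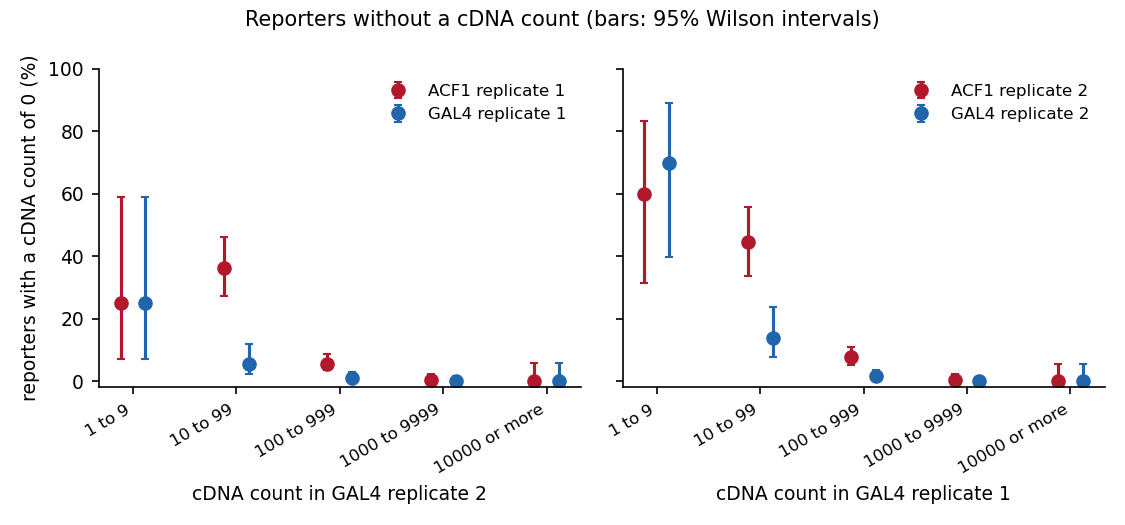
The vertical axis gives the percentage of reporters with a cDNA count of 0 in ACF1 (red) and GAL4 (blue) of the same replicate number, by their cDNA count in the other GAL4 replicate on the horizontal axis, with 95% Wilson intervals as bars. At 1 to 9 counts (8 and 10 reporters) ACF1 was at 25% and 60% and GAL4 at 25% and 70%. At 10 to 99 counts ACF1 was at 36.2% and 44.4% and GAL4 at 5.32% and 13.9%, and from 1000 counts upwards both were near 0.

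The clearest single losses were 5 reporters with at least 100 counts in each GAL4 library and 0 in both ACF1 libraries, whose barcodes stand above. The reporter on 3R at 2132199 had 0 and 0 cDNA counts in ACF1, against 623 and 187 in GAL4, while its gDNA counts were 694 and 663 in ACF1 and 828 and 232 in GAL4. Its expression was 0 and 0 in ACF1, against 51.8 and 37.5 in GAL4, which is at least 150.2-fold lower when each ACF1 library is placed at the floor of 3 counts. It was the most strongly expressed of the 5. The reporter on 3L at 4983885 had 0 and 0 counts in ACF1, against 701 and 143 in GAL4, or an expression at least 55.9-fold lower. The reporter on 2L at 21000965 had 0 and 0 counts in ACF1, against 205 and 105 in GAL4, or at least 30.6-fold lower. All 3 were present in the gDNA of both ACF1 libraries. The reporter on 3R at 5250276 had 0 and 0 counts in ACF1, against 168 and 193 in GAL4 (at least 20.5-fold lower). The reporter on X at 777625 had 0 and 0 counts in ACF1, against 110 and 172 in GAL4 (at least 10.9-fold lower). In these 5 the 2 conditions did not overlap. They had been chosen for that, so it is a description only.

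Each reporter was then tested with edgeR's quasi-likelihood test for a change of cDNA beyond that of gDNA, with all 16 libraries of the series sharing 1 estimate of the spread. Of 642 reporters 3 passed an adjusted p of 0.05, all lower with ACF1 (0.467% of those tested), and 0 were higher (0%). This main fit did not tie the cDNA and gDNA libraries of the same cells together. With a block for each transfection, which does so, 0 passed, and the 3 had an adjusted p of 0.24 (edgeR). Without adjustment, 64 had a p under 0.05 in the main fit, of which 59 were lower and 5 higher. In cDNA alone, 8 reporters were lower (1.25%) and 0 higher (0%). In gDNA alone 0 passed in either direction (0%), 13 had an unadjusted p under 0.05, and the lowest adjusted p was 0.84. The few calls thus lay in the transcripts and on the lower side.

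The calls of the ratio depended on the fit. Leaving out the libraries of any one of ACF1 replicate 1, ACF1 replicate 2, GAL4 replicate 1 or GAL4 replicate 2 left 0 calls, with 72, 66, 30 and 41 reporters at an unadjusted p under 0.05. The fitted log2 fold changes of the 3 called reporters stayed from −4.92 to −3.58 (2R), −9.38 to −6.99 (3R) and −3.78 to −3.01 (2L) in these fits, in which 1 library stood against 2 and the adjusted p lay between 0.08 and 0.39 by edgeR. TMM factors, the authors' scaling and a block for each transfection also gave 0 calls, whereas a fit to the 8 libraries of ACF1 and GAL4 alone gave 17, all lower, and DESeq2 with its own median-of-ratios size factors gave 14, of which 6 were lower and 8 higher.

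Among the called reporters the one on 2L at 14457104, on the plus strand, had the highest counts. Its cDNA counts were 159 and 91 in ACF1, against 992 and 1588 in GAL4, and its gDNA counts were 10838 and 6328 in ACF1 and 10499 and 7705 in GAL4. Its expression was 1.36 and 0.612 in ACF1, against 6.51 and 9.58 in GAL4, an 8.14-fold lower mean. Both ACF1 values were far below both GAL4 values, and the fitted log2 change of its gDNA was 0.02. The fitted log2 fold change was −3.34 ± 0.61 (SE, adjusted p = 0.0308 by edgeR).

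The reporter on 3R at 24818880, on the plus strand, was all but lost. It had 0 and 1 cDNA counts in ACF1, against 182 and 146 in GAL4, with 1999 and 1703 gDNA counts in ACF1 and 2188 and 2714 in GAL4. Its expression was 0 and 0.025 in ACF1, against 5.73 and 2.50 in GAL4, a ratio of 329-fold that rests on 1 count (95% exact Poisson interval 59.1 to 13001, and 38.4-fold with each ACF1 library placed at 3 counts). It passed the test with an adjusted p of 0.0307 (edgeR).

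The other reporters among the 4 lowest fitted changes did not pass the test. The reporter on X at 18629353 had 1 and 0 cDNA counts in ACF1, against 186 and 185 in GAL4, with an expression of 0.136 and 0 in ACF1 and 17.8 and 8.55 in GAL4 (194-fold lower on 1 count, interval 34.9 to 7678, 41.3-fold with each ACF1 library at 3 counts, adjusted p = 0.34 by edgeR). The reporter on 2L at 18392404 had 1 and 1 counts in ACF1, against 67 and 120 in GAL4, with an expression of 0.0763 and 0.0387 in ACF1 and 2.15 and 4.38 in GAL4 (56.8-fold lower on 2 counts, interval 15.7 to 469, 18.9-fold at 3 counts, adjusted p = 0.25 by edgeR). In both, neither ACF1 library came near the GAL4 values. The reporter at 1722011 of the unplaced scaffold Uextra had 0 and 12 counts in ACF1, against 256 and 97 in GAL4, with an expression of 0 and 0.470 in ACF1 and 27.0 and 4.23 in GAL4 (adjusted p = 0.54 by edgeR). Its GAL4 replicates differed widely, in part through gDNA counts of 652 and 1066.

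The 4 highest fitted changes did not pass the test. The reporter on X at 18942971 had an expression of 31.9 and 268 in ACF1, against 8.40 and 15.6 in GAL4, with 237 and 554 cDNA counts in ACF1 and 263 and 160 in GAL4. Its gDNA counts were 690 and 88 in ACF1, against 2156 and 476 in GAL4, so the 12.5-fold higher mean moved with a low gDNA count as well as with the transcript (fitted log2 fold change 2.61 ± 2.99 SE, adjusted p = 0.82 by edgeR). The reporter on 2L at 3140152 had 89.0 and 368 in ACF1, against 25.7 and 43.6 in GAL4, and its gDNA counts were 1088 and 447 in ACF1, against 3373 and 1390 in GAL4 (2.45 ± 0.86 SE, adjusted p = 0.34). In both replicates the gDNA counts of these reporters were lower with ACF1, as were those of the other pair below. The reporter on 3R at 5962305 had 42.1 and 95.4 in ACF1, against 7.40 and 13.9 in GAL4, with 455 and 1326 cDNA counts in ACF1 and 368 and 288 in GAL4, and with 1003 and 592 gDNA counts in ACF1 and 3427 and 964 in GAL4 (2.69 ± 1.73 SE, adjusted p = 0.62 by edgeR). The reporter on 3R at 2021404 had 41.6 and 3.03 in ACF1, against 4.44 and 1.49 in GAL4, so its second ACF1 value fell between the GAL4 values, and its gDNA counts were 1378 and 1519 in ACF1 and 2962 and 2253 in GAL4 (2.20 ± 1.67 SE, adjusted p = 0.67 by edgeR).

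The 5 strongest reporters did not pass the test in either direction. The highest in GAL4, on 3L at 3430681, had an expression of 4374 and 7055 in ACF1, against 7300.1 and 7118 in GAL4 (adjusted p = 0.66 by edgeR). The one on X at 3325631 had 6116 and 4690 in ACF1, against 2532 and 2780.1 in GAL4, a 2.03-fold higher mean (fitted log2 fold change 0.77 ± 0.35 SE, unadjusted p = 0.0493, adjusted p = 0.49). Its ACF1 values were both above its GAL4 values. The reporter on 3R at 4644683 took the most cDNA counts of all in GAL4, and its expression was 4570 and 2705 in ACF1, against 2799 and 2785 in GAL4 (adjusted p = 0.89 by edgeR). The reporter on 3L at 3387336 had 1941 and 2114 in ACF1, against 2764 and 1549 in GAL4, so the conditions overlapped (adjusted p = 0.89 by edgeR).

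Among the 50 reporters highest in one GAL4 replicate, the other replicate gave median log2 fold changes of 0.52 (36 of 50 higher with ACF1, replicate 1) and 0.21 (31 of 50, replicate 2). Under scaling to library totals the medians were 0.07 and 0.16, with 26 and 30 of 50 higher. These reporters were therefore high relative to the typical reporter under both scalings, and above GAL4 by an amount that the scaling set. Chosen instead by the mean of both GAL4 libraries, whose values the change then shares, the 50 highest had a median of −0.07 on the authors' scale. Of these, 23 of 50 were higher with ACF1, so standing above GAL4 also depended on the choice.

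**Figure D5:**
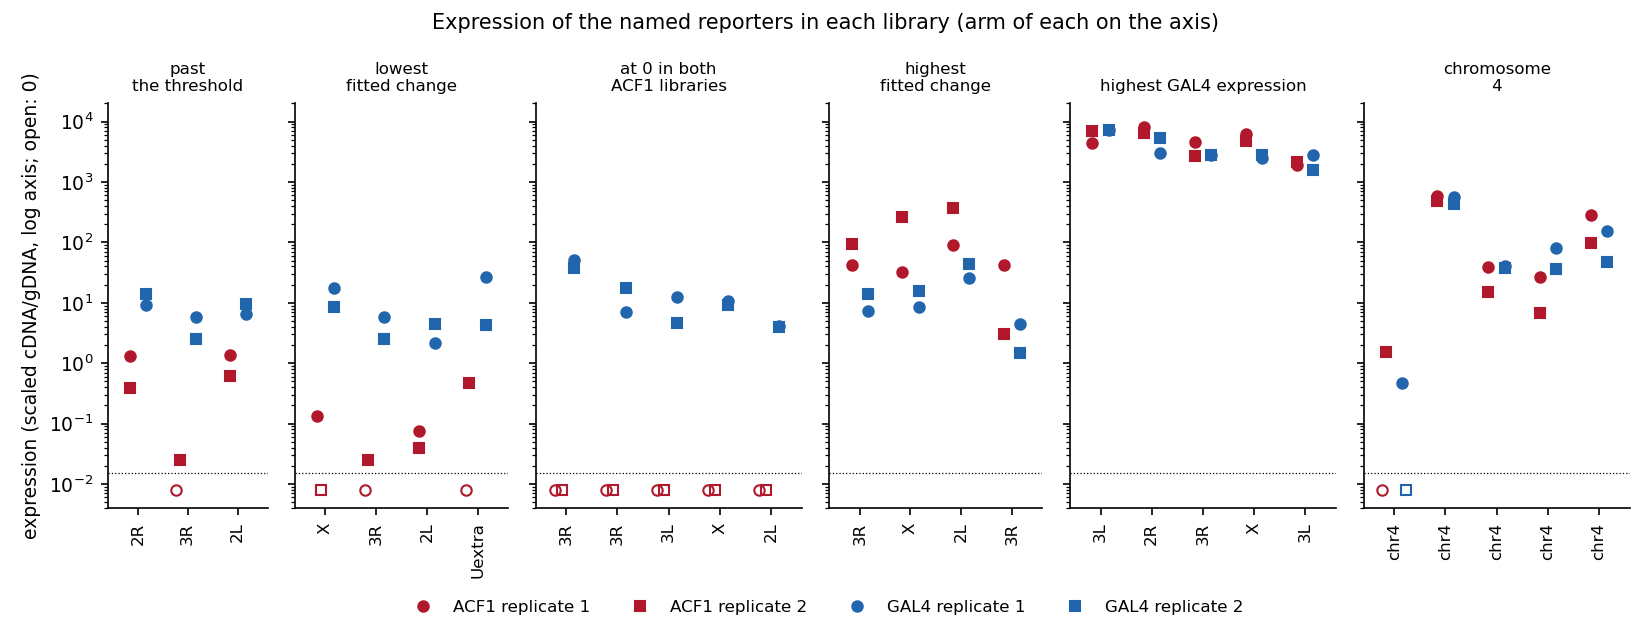
Expression (cDNA over gDNA after the authors' scaling, log axis) of the named reporters in each library is plotted by group, with the chromosome arm of each reporter below; circles are replicate 1 and squares replicate 2, red is ACF1 and blue is GAL4, and open symbols under the dotted line are values of 0. The reporters past the threshold have ACF1 values from 0 to 1.36 below GAL4 values from 2.50 to 14.0, and among the reporters highest in GAL4 the ACF1 values overlap with the GAL4 values, lie above them or, for the first on 3L, lie below them.

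The third called reporter lay on 2R at 12260747, on the minus strand. Its cDNA counts were 114 and 49 in ACF1, against 807 and 1035 in GAL4, with 8125 and 5326 gDNA counts in ACF1 and 6020 and 3437 in GAL4. Its expression was 1.30 and 0.392 in ACF1, against 9.23 and 14.0 in GAL4, a 13.7-fold lower mean (fitted log2 fold change −4.11 ± 0.69 SE, adjusted p = 0.0307 by edgeR). The conditions did not overlap, and the transcript fell while its share of the gDNA did not. The second highest reporter in GAL4, on 2R at 8505191, had an expression of 8134 and 6353 in ACF1, against 3064 and 5283 in GAL4 (0.62 ± 0.28 SE, unadjusted p = 0.0444, adjusted p = 0.48 by edgeR). For the 3 called reporters, expression with ACF1 fused to the GAL4 domain, a condition set against the same GAL4 libraries, was 0.336 and 1.32 on 2R at 12260747, 0.0575 and 0 on 3R at 24818880, and 0.287 and 0.388 on 2L at 14457104.

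By chromosome arm the medians were all on the lower side, and their differences were small beside the spread between reporters. The median log2 fold change was −0.75 on 2L (108 reporters), −0.53 on X (131), −0.31 on 3R (155), −0.23 on 2R (101) and −0.21 on 3L (129). On 2L it was −0.34 in replicate 1 and −0.71 in replicate 2, and on 2R it was 0.04 and −0.73. The order of the arms thus differed between the replicates through 2R only, which was highest in replicate 1 and lowest in replicate 2. X, 3L and 3R followed 2L in both, with −0.28, −0.25 and −0.15 in replicate 1 and −0.60, −0.50 and −0.41 in replicate 2. X was below the autosomal arms by −0.15, with −0.09 and −0.08 in the replicates, and above them by 0.03 without division by gDNA. Among reporters below the median of GAL4 expression every arm had a median from −1.23 to −0.57 in either replicate. Among those above it the medians ran from −0.45 to 0.45, so the step between weak and strong reporters was seen on all 5 arms.

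In bins of 5 Mb along the arms, 23 of 25 bins had a median below 0, and 17 were below 0 in both replicates. The lowest was X from 5 to 10 Mb, with −1.37 over 30 reporters and −1.01 and −1.15 in the replicates. The highest was 2R from 15 to 20 Mb, with 0.20 over 16 reporters, and it was the 1 bin above 0 in both replicates (0.28 and 0.26). These ends were picked from the means of the same replicates. Over all 25 bin medians, the ends included, the bins had no common order in the replicates (r = 0.09). Orientation made little difference, with −0.43 for 346 reporters on the minus strand and −0.35 for 296 on the plus strand.

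Chromosome 4, small and rich in heterochromatin, held 5 reporters. The one at 547814 was the strongest and had 582 and 479 in ACF1, against 557 and 431 in GAL4. The one at 966930 had 282 and 96.5 in ACF1, against 155 and 46.4 in GAL4. Expression at 1252113 was 39.0 and 15.1 in ACF1, against 40.0 and 38.2 in GAL4. The first pair of reporters had a higher mean with ACF1 and the third a lower one. At 1200624 expression was 26.7 and 6.81 in ACF1, against 79.8 and 35.7 in GAL4. At 407950 it was 0 and 1.55 in ACF1, against 0.465 and 0 in GAL4, on at most 14 counts. None of the 4 that were tested passed (adjusted p from 0.61 to 0.89 by edgeR). Of the 28 reporters on heterochromatic or unplaced scaffolds, the 14 with a fold change were weak in either condition, with a median mean expression of 3.32 in ACF1 and 10.1 in GAL4. Their median log2 fold change was −0.35, with quartiles of −3.16 and 0.70. It differed widely between the replicates, with −0.04 in replicate 1 and −1.31 in replicate 2 (12 reporters each).

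The changes of neighbouring reporters lay closer together than those of distant ones. Of 41 pairs of neighbours within 10 kb, 29 had a fold change for both, and 21 of these had the same sign, 12 lower and 9 higher. Same signs are frequent in any pairs, since 66.2% of the 642 reporters were lower, and their share among distant pairs was not computed. The median absolute difference of the log2 fold changes was 0.58 in these pairs, against 1.24 in 36191 pairs over 1 Mb apart on the same arm. The correlation over the 29 pairs was r = 0.40 (rho = 0.33), with r of 0.43 (rho = 0.24) in replicate 1 and 0.19 (rho = 0.16) in replicate 2. It is a description, because the pairs share their libraries and their GAL4 expression also correlated (r = 0.25). The closest pair, on 2R at 8268310 and 8268327 in opposite orientations, had 29.5 and 121 in ACF1, against 101 and 101 in GAL4, and 27.3 and 11.6 in ACF1, against 54.1 and 68.9 in GAL4. The pair on 3L at 3951388 and 3951559 had 107 and 31.0 in ACF1, against 73.5 and 151 in GAL4, and 16.2 and 14.1 in ACF1, against 48.2 and 31.1 in GAL4. In each of these pairs one reporter was lower in both replicates and the other went both ways. The pair on 3L at 2089820 and 2090177 had 137 and 25.5 in ACF1, against 177 and 86.9 in GAL4, and 39.8 and 31.2 in ACF1, against 44.6 and 32.7 in GAL4. Both of its reporters were lower in both replicates.

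The change was weakly related to the GC content of the barcode, without a steady order over quintiles. By quintiles of barcode GC content from low to high, the median log2 fold change was −0.10, −0.56, −0.31, −0.33 and −0.84. The change of the cDNA share was lowest in the highest quintile, with −0.77 and −0.67 in the replicates, against −0.49 and −0.42 in the lowest quintile. The relation was weak (rho = −0.12 over 642 reporters, and −0.12 and −0.08 in the replicates), and its part in the changes above was not tested. By quintiles of gDNA count the medians were −0.42, −0.23, −0.57, −0.33 and −0.31, with no order.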

How the data were processed

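The authors sequenced the barcodes of polyadenylated RNA (cDNA) and genomic DNA (gDNA). The deposited counts are whole barcode reads per reporter and library, not normalized, and the counting tool is not given in the sources used here. The deposited expression is a ratio of cDNA to gDNA counts times 1 constant per library, set by the authors from a spike-in pool (2.5% of cells) and library sizes, whose counts were not used here. Fold changes are log2 ratios of mean expression over both replicates, without a pseudocount. edgeR 4.0.16 in R 4.3.3 (glmQLFit and glmQLFTest, two-sided, Benjamini-Hochberg over 642 reporters, library sizes from column totals) and DESeq2 1.42.0 were run on the counts. Tested on simulated data for this comparison over 642 reporters, edgeR found 30 of 50 reporters lowered by 4 log2 units and 33 of 50 raised by 4. It found 6 of 50 lowered by 2, 6 of 50 raised by 2, and 0 of 442 unchanged ones. The simulated counts were drawn around the GAL4 means with 1 spread (dispersion 0.358) for all reporters and libraries. The real libraries did not have 1 spread: between replicates the cDNA shares had an SD of 1.57 in ACF1 and 0.83 in GAL4. The shares found therefore hold for the simulated counts only.

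Named reporters were those past the threshold, up to 4 with the lowest and 4 with the highest fitted change and 1 direction in the replicates, given 50 counts or more, up to 5 at 0 in both ACF1 libraries with the highest GAL4 counts, the 5 highest in GAL4, those on chromosome 4 and the 3 closest pairs. Members and lists were chosen with earlier results of these data known. Same-numbered libraries did not deviate together clearly (r = 0.08, 0.14 and 0.13 between ACF1 and the other conditions, 2 replicates). The main fit therefore did not take replicate numbers as pairs. Changes given per replicate nevertheless set each ACF1 library over the GAL4 library of the same number. Their agreement under the other pairing was not computed.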

Additional observations from a re-analysis of the deposited data

How the results depend on the processing

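The median log2 fold change stayed below 0 under all 14 alternatives. It was −0.68 with scaling to library totals, −0.23 over reporters above 0 in every cDNA library, −0.24 without division by gDNA, and from −0.75 to −0.20 when a library or a replicate number was left out. The replicate block, which pairs libraries by number, gave −0.37 for the median, 4 calls in the ratio (2 of them shared with the 3) and 11 in cDNA alone (7 shared with the 8).

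Calls in the ratio numbered 0 with TMM factors, the authors' scaling or a block per transfection, 5 with a mean above 0 in ACF1 and GAL4 only or with counts above 0 in every cDNA library, 10 without a filter, 17 with only the 8 libraries of ACF1 and GAL4, 13 with DESeq2 on the same library sizes and 14 with its own size factors (336 reporters without an adjusted p), and 0 with any one library pair left out. Calls in cDNA alone numbered 5 with TMM factors, 28 without a filter, 17 with counts above 0 in every cDNA library, 37 with only 8 libraries, and 1 to 6 with libraries left out. Calls in gDNA alone were 0 in every fit run.

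The lowest minus the highest quintile of GAL4 expression was −1.07 without division by gDNA, −1.32 with at least 10 counts in each library, −1.21 with counts above 0 in every cDNA library and −0.75 with expression and change from the same GAL4 mean. Lost reporters numbered 30 with at most 3 counts in place of 0. X minus the autosomal arms was 0.028 without division by gDNA, −0.13 with counts above 0 in every cDNA library, −0.12 with a mean above 0 in ACF1 and GAL4 only, and from −0.21 to −0.061 with libraries left out. Reporters lower in both replicates numbered 330 with library totals and 277 without division by gDNA, and those higher in both 73 and 121. The cause of these differences was not tested. At 100 to under 1000 counts log2 expression still differed between replicates with an SD of 1.58 in ACF1 and 1.45 in GAL4.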
